A study of Mus musculus with 4 samples.

Results

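Meis binding was examined around 4 T-box genes of the mouse limb, *Tbx2*, *Tbx3*, *Tbx4* and *Tbx5*. The genes lie in 2 clusters, and every Meis peak with its summit in a window around a cluster was taken. The windows were chr5:119.6-120.8 Mb for *Tbx3* and *Tbx5* and chr11:85.3-86.1 Mb for *Tbx2* and *Tbx4*, in mm9. They held 155 of the 40716 summits in the peak lists of forelimbs (FLs) and hindlimbs (HLs). Several summits of one peak were counted as 1 region, which left 77 of 21338 FL regions and 66 of 16987 HL regions, 143 in all. Within the windows a peak was taken by its position alone, whatever its height, q-value or overlap with the other limb.

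The FL and HL buds came from wild-type C57BL/6 embryos at E10.5, at about 36 somites, with no transgene, mutation or treatment in either group. About 500 buds of each kind were pooled and fixed, and Meis-bound chromatin was precipitated with a mixture of antibodies, one against Meis1a, Meis2a and Meis2c and the other against every isoform of Meis1. For FLs there was 1 ChIP library with 1 input, and likewise for HLs, with reads of 50 bp. Without replicates, a difference between the limbs has no error to be judged by and was not tested. The pools hold all cell types of the bud, and a peak list has no expression values, so the limb identity of the pools could not be checked against marker genes.

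T-box genes encode transcription factors that share a DNA-binding domain. *Tbx5* acts in the initiation of the FL, *Tbx4* in the HL, and *Tbx2* and *Tbx3* encode repressors that are expressed along the margins of the limb bud. *Tbx2* and *Tbx4* are neighbours, as are *Tbx3* and *Tbx5*, an arrangement that goes back to the duplication of an ancestral gene cluster. Meis1 and Meis2 are homeodomain proteins of the TALE class that bind DNA alone or with Pbx and Hox proteins and are found in the proximal limb bud.

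The 4 genes are transcribed in the direction of rising coordinates. In mm9 the *Tbx3* start lay at 120121027 and the *Tbx5* start at 120284672 on chromosome 5, 164 kb apart. The *Tbx2* start lay at 85646053 and the *Tbx4* start at 85710267 on chromosome 11, 64.2 kb apart. *Rbm19* follows *Tbx5* on chromosome 5. *Bcas3* precedes *Tbx2* and *Brip1* follows *Tbx4* on chromosome 11. *Brip1* is transcribed toward *Tbx4*, so its body (143 kb in Brip1-201) lies between the *Tbx4* and *Brip1* starts. These neighbours are used here for position only.

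Of the 4 genes, *Tbx4* is the one whose promoter is in the RefSeq table used here. It is shown as a description only. It holds the short Meis core, a common sequence in promoters, and the *Tbx4* start had no FL peak within 10 kb. The sequence covers chr11:85896515-85896814 of GRCm38.p6 on the plus strand, with the RefSeq start at 85896765. Capitals mark TGACA, the first letters of the Meis hexamer TGACAG.

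Tbx4 promoter: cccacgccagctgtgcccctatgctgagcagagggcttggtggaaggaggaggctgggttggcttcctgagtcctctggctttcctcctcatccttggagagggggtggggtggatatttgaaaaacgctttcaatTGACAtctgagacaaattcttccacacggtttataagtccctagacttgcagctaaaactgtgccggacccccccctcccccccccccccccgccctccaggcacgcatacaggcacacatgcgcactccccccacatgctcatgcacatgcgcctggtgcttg

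The core TGACA occurs once on the plus strand, 114 bp upstream of the start, and not on the minus strand. It was found on either strand in 45.4% of 32851 RefSeq promoters of the same length. The complete hexamer TGACAG, which contains this core and was found in 19.2% of the promoters, did not occur in this window on either strand. The Hox-Pbx octamers TGATTTAT (0.977% of promoters) and TGATTGAT (0.746%) did not occur either, nor did GGTGTG, the core of T-box sites (19% of promoters). No FL peak had its summit within 10 kb of this start, and a single HL peak did, 6.24 kb upstream. That HL peak, chr11:85703948-85704052, had a fold of 2.16 and a q of 1. Another annotated *Tbx4* start, that of Tbx4-201, is 6.7 kb upstream in GRCm38. The sequences of the peaks themselves are not shown, because the genome at hand was of another build than the peaks.

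The 2 windows were rich in Meis peaks, and most of the peaks were low. Fold is the ChIP signal at a summit over the local background of the input, and q is the peak caller's own corrected p-value. That correction was not over the listed peaks alone, since an FL region with a p of 0.000144 had a q of 0.499. The *Tbx3*-*Tbx5* window held 51 FL regions (42.5 per Mb) and 38 HL regions (31.7 per Mb). The *Tbx2*-*Tbx4* window held 26 FL regions (32.5 per Mb) and 28 HL regions (35 per Mb). Over the whole lists there were 8.11 FL and 6.46 HL regions per Mb, so that the windows were 4.01 to 5.42 times as dense. The windows were drawn around developmental genes and were not compared with other gene loci of that kind.

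Median folds in the windows were near those of the lists. They were 2.56 (FL) and 2.7 (HL) around *Tbx3* and *Tbx5*, and 3.03 (FL) and 2.72 (HL) around *Tbx2* and *Tbx4*, with 2.78 over each whole list. In the *Tbx3*-*Tbx5* window 37 of the 51 FL regions and 28 of the 38 HL regions had a fold below 3. In the *Tbx2*-*Tbx4* window this held for 13 of 26 FL and 18 of 28 HL regions. The lists extend to peaks with weak evidence, and a p of at most 0.0005 was reached by 24 of the 77 FL regions and 23 of the 66 HL regions. Counts of all regions therefore describe mainly low peaks, and the tall ones are given singly.

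The q limit of 0.05 was met by 16 of the 77 FL regions (20.8%, 95% Wilson interval 13.2 to 31.1%), where 17.4% of all FL regions met it. It was met by 10 of the 66 HL regions (15.2%, 8.44 to 25.7%), where the background was 10.1%. These intervals cover counting error only. The order of the windows was opposite in the limbs, a pattern that was not tested. Around *Tbx2* and *Tbx4* the FL share was 10 of 26 (38.5%, 22.4 to 57.5%) and the HL share 3 of 28 (10.7%, 3.71 to 27.2%). Around *Tbx3* and *Tbx5* the FL share was 6 of 51 (11.8%, 5.51 to 23.4%) and the HL share 7 of 38 (18.4%, 9.22 to 33.4%). With the exception of the FL share around *Tbx2* and *Tbx4*, each interval included the background of its limb.

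**Figure D1:**
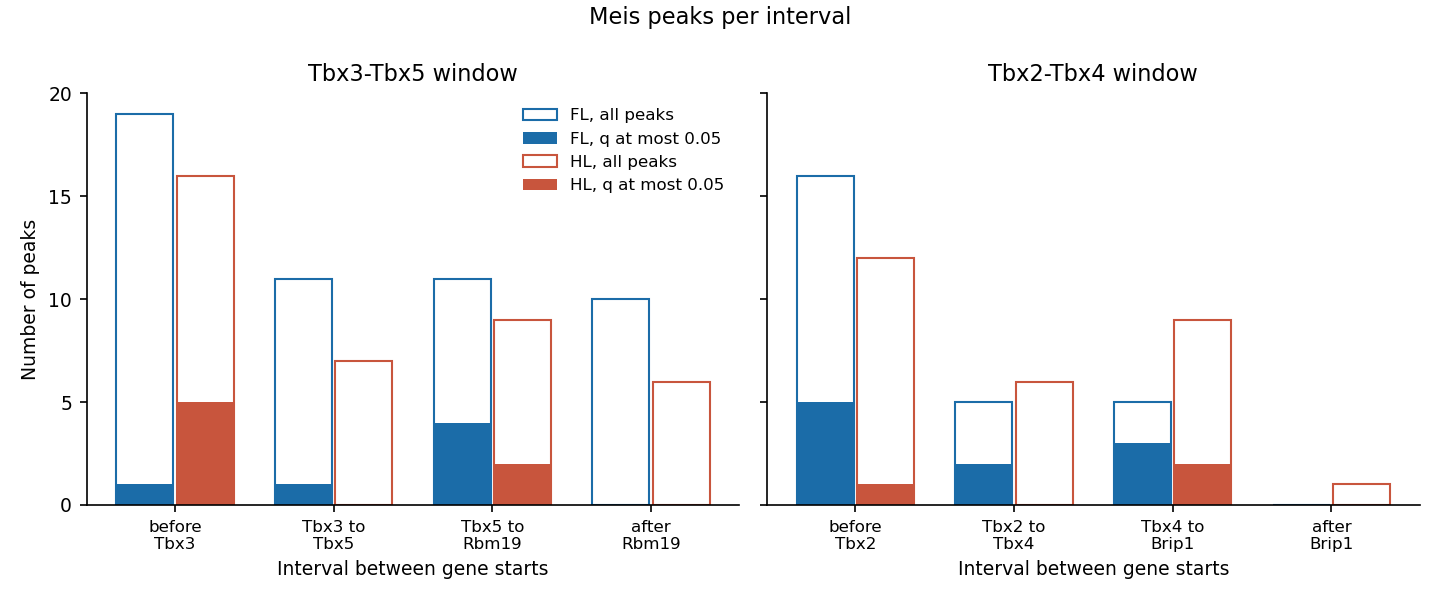
Number of Meis peaks in FLs (blue) and HLs (red) in each interval between gene starts, for the *Tbx3*-*Tbx5* window (left) and the *Tbx2*-*Tbx4* window (right). Open bars are all peaks and filled bars those with q at most 0.05, so that upstream of *Tbx3* 5 HL peaks and 1 FL peak are filled, and upstream of *Tbx2* 5 FL peaks and 1 HL peak.

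The peaks that passed the q limit are given by interval, as a description of small counts with no test between the limbs. Over the lists 17.4% of FL and 10.1% of HL regions passed. Upstream of *Tbx3*, 1 of 19 FL regions and 5 of 16 HL regions passed, while between the *Tbx5* and *Rbm19* starts it was 4 of 11 FL and 2 of 9 HL regions. Between *Tbx3* and *Tbx5* themselves 1 of 11 FL regions passed and 0 of 7 HL regions. Past the *Rbm19* start none of the 10 FL and 6 HL regions passed, with folds of at most 3.5 in FLs and 3.12 in HLs.

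On chromosome 11 the FL peaks that passed were spread over all intervals up to *Brip1*. They were 5 of 16 regions upstream of *Tbx2*, 2 of 5 between *Tbx2* and *Tbx4*, and 3 of 5 from *Tbx4* to *Brip1*. The HL peaks that passed were 1 of 12, 0 of 6 and 2 of 9 in the same intervals. Only 1 region of either limb lay past the *Brip1* start, an HL peak with a fold of 3.5 and a q of 0.725. Between neighbouring members on chromosome 11, the longest stretch without a summit was 130 kb in FLs and 177 kb in HLs. It lay on the *Brip1* side in both, ending inside *Brip1* in FLs and running across that gene in HLs. Stretches from the outermost members to the window edges were not counted. The edges of the windows cut through no tall cluster on chromosome 5, where the nearest peaks inside and outside had folds of 2.27 to 3.34 and a q of 1. On chromosome 11 the nearest peak below the window, 55.1 kb outside it, had a fold of 6.21 in FLs (q of 2.25e-06) and 3.92 in HLs (q of 0.0114), and is not among the members. The first members inside that edge had folds of 4.86 (FL) and 2.72 (HL). At the upper edge the last members had folds of 2.08 (FL) and 3.5 (HL), and the nearest peaks outside had 3.65 and 2.88, with no q within 0.05.

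**Figure D2:**
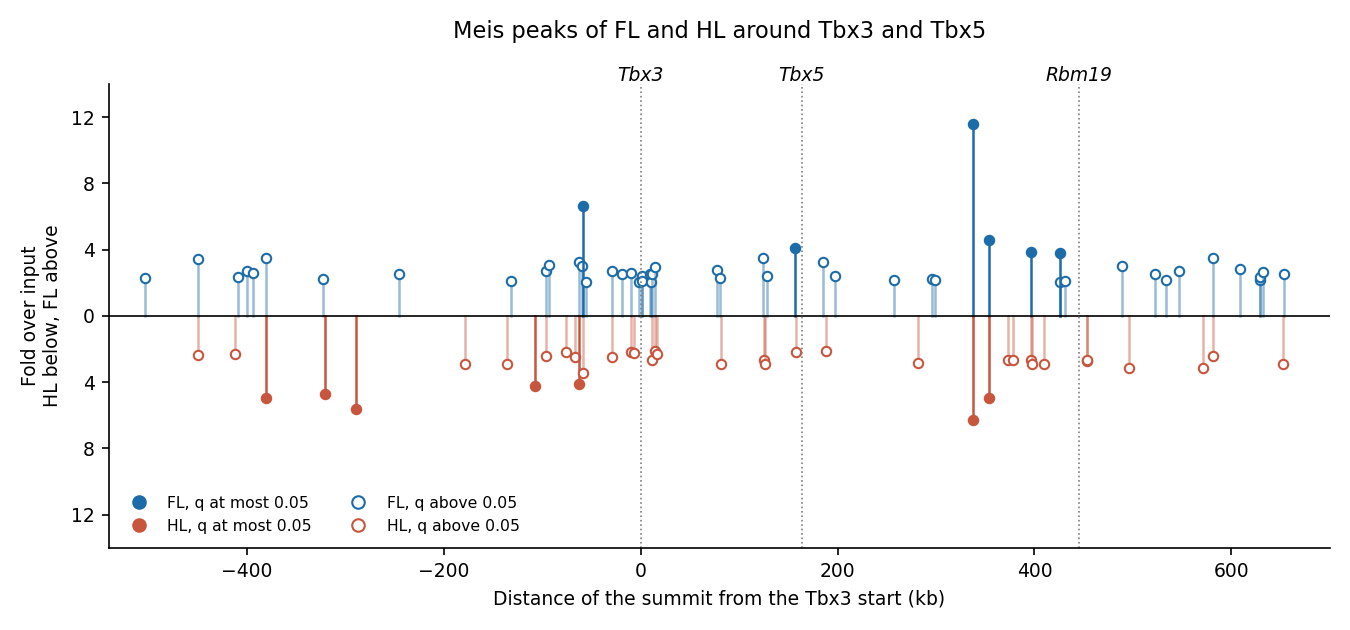
Fold over input of each Meis peak against the distance of its summit from the *Tbx3* start in kb, with FL peaks above the axis and HL peaks below it. Filled circles have q at most 0.05 and dotted lines mark gene starts. The tallest peak of both limbs stands 338 kb downstream of *Tbx3* (FL fold 11.6, HL fold 6.26), and 5 filled HL peaks stand upstream of *Tbx3*.

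*Tbx5*, the gene of FL initiation, had its tallest surrounding peak far downstream. This peak, chr5:120458340-120458752, had a fold of 11.6 in FLs with a q of 1.5e-23, rank 84 of the FL list. The HL peak there, chr5:120458395-120458666, had a fold of 6.26 with a q of 3.23e-10, rank 370 of the HL list. The summits lay 1 bp apart, 174 kb past the *Tbx5* start and outside any of the annotated genes considered. It was the tallest peak of the window in both limbs. The *Rbm19* start lay 282 kb past the *Tbx5* start, so this peak was nearer to *Rbm19*, as were the peaks named below from further downstream. A further peak passed the q limit in both, at chr5:120474362-120474762 and 190 kb downstream. Its fold was 4.58 in FLs (q of 0.00403) and 4.93 in HLs (q of 0.000799), which makes it the closest to equal between the limbs of the pairs that passed in both.

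Close to *Tbx5* itself the peaks were not shared between the limbs. Within 100 kb of its start there were 8 FL and 5 HL regions, and no FL region overlapped an HL region. Over the lists 22.6% of FL and 29% of HL regions overlapped one of the other limb, so counts this small are a description only. A single region near *Tbx5* passed the q limit, the FL peak chr5:120277477-120277651 at 7.12 kb upstream of the start, with a fold of 4.09 and a q of 0.0289. The nearest HL summit was 1.37 kb away, in a peak with a fold of 2.16 and a q of 1 at 5.75 kb upstream of *Tbx5*. Inside *Tbx5*, by distance from its start, lay 2 FL regions with folds of 2.43 and 3.23 and 1 HL region with a fold of 2.09. All 3 fell in intron 7 of Tbx5-201 and none passed.

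Further down, the FL peak chr5:120517292-120517501, 233 kb from *Tbx5*, reached a fold of 3.84 and a q of 0.00488. The HL peak at its summit had a fold of 2.68 and a q of 1. The FL peak chr5:120547135-120547401, 263 kb from *Tbx5*, reached a fold of 3.81 and a q of 0.0497, just within the limit, and no HL peak overlapped it. Its nearest HL summit was 16.9 kb away. Both of these FL peaks were nearer to the *Rbm19* start than to the *Tbx5* start.

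*Tbx3*, a repressor gene, had peaks around its start and in its body in FLs, all of them low. Within 10 kb of the start there were 5 FL regions, with folds of 2.03 to 2.6, and 2 HL regions with folds of 2.17 and 2.22, and every one had a q of 1. The FL summit nearest to the start lay 1.25 kb downstream, in exon 1 of Tbx3-201, at chr5:120122173-120122362. In all, 5 FL regions and 1 HL region lay inside the gene, with folds of 2.06 to 2.56 and of 2.68. The single FL peak upstream of *Tbx3* that passed the q limit was chr5:120062406-120062917, at 58.2 kb. It held 2 summits with folds of 6.62 and 3.84, and had a q of 2.57e-08. The HL peak under its taller summit had a fold of 3.42 and a q of 0.123, the largest ratio of FL to HL fold in the window (1.94).

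Slightly further out the order was the other way. The HL peak chr5:120058764-120058987, at 62.2 kb upstream of *Tbx3*, had a fold of 4.13 and a q of 0.0284. The overlapping FL peak had a fold of 3.24 and a q of 0.712. Farther upstream lay 4 more HL peaks that passed, of which 3 had no overlapping FL peak. The tallest of these, chr5:119831536-119831821 at 289 kb, had a fold of 5.61 and a q of 1.87e-05, and the nearest FL summit was 33.1 kb away. The HL peak chr5:119800582-119800797 at 320 kb had a fold of 4.71 and a q of 0.00263, with an FL summit 2.13 kb off. The HL peak chr5:120013497-120013611 at 107 kb had a fold of 4.25 and a q of 0.000823, with the nearest FL summit 11.7 kb off. The remaining one, chr5:119740046-119740235 at 381 kb, had a fold of 4.93 and a q of 0.00011 in HLs, and in FLs a fold of 3.49 and a q of 0.366. In this interval 5 of 16 HL regions and 1 of 19 FL regions passed, where 10.1% and 17.4% of the lists did. Over the HL list 1.09% of regions passed and had no FL overlap. These are small counts, and a difference between the limbs was not tested.

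**Figure D3:**
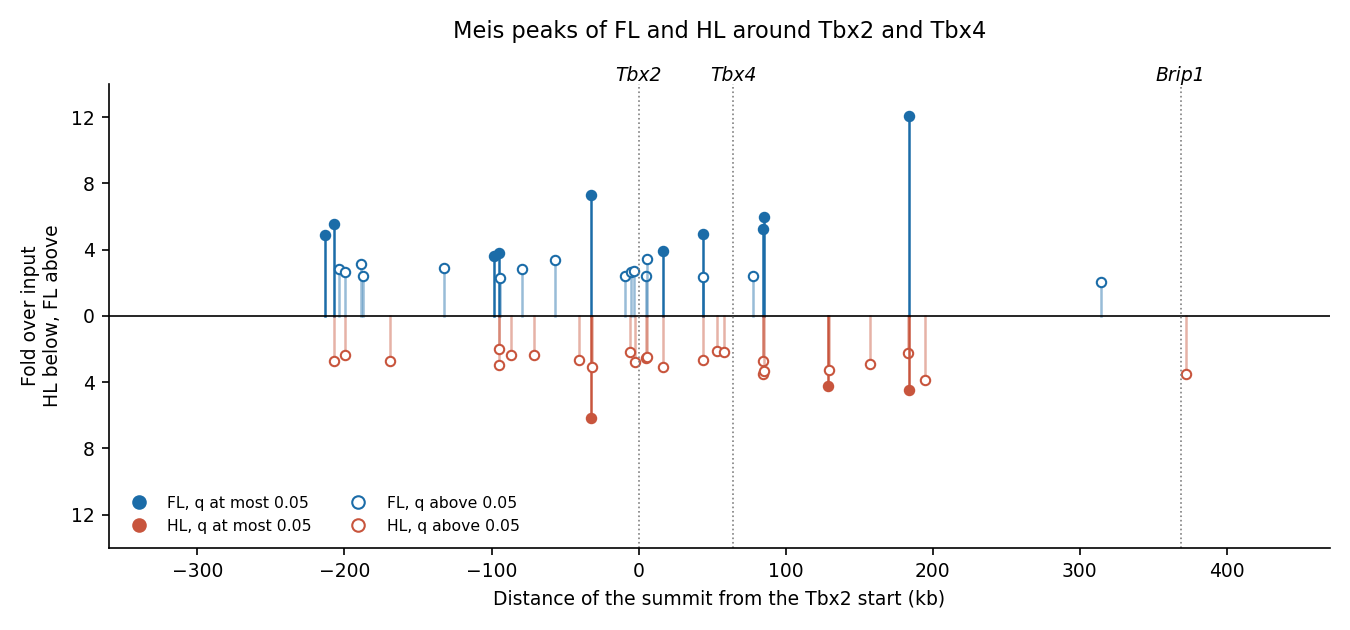
Fold over input of each Meis peak against the distance of its summit from the *Tbx2* start in kb, with FL peaks above the axis and HL peaks below it. Filled circles have q at most 0.05 and dotted lines mark gene starts. The tallest FL peak, with a fold of 12.1 where the HL fold is 4.5, stands 184 kb downstream of *Tbx2* and 120 kb downstream of *Tbx4*.

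*Tbx4*, the gene of HL initiation, also had its tallest FL peak far downstream, and that peak was taller in FLs than in HLs. The tallest HL peak of the window, with a fold of 6.17, lay 96.7 kb upstream of *Tbx4*, and is described with *Tbx2*, to which it is nearer. The FL region chr11:85829443-85830753 was the longest of the members (1311 bp) and held 3 summits with folds of 2.81, 12.1 and 7.07. Its q was 1.82e-23 and its rank in the FL list 74. Under it lay 2 HL regions. The taller, chr11:85829788-85830446, had 2 summits with folds of 2.22 and 4.5 and a q of 0.000114, rank 1099 of the HL list. The lower, chr11:85829490-85829661, had a fold of 2.24 and a q of 1. The FL fold was 2.7 times the HL fold (log2 ratio of 1.43), the largest ratio of any shared peak of the members.

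Closer to *Tbx4*, a pair of FL peaks stood just past the 3' end of the gene, which is 19.3 kb long in Tbx4-202. The first, chr11:85730586-85730884 at 20.5 kb from the *Tbx4* start, reached a fold of 5.27 and a q of 5.19e-05, against an HL fold of 3.48 with a q of 0.169. The second, chr11:85731450-85731904 at 21.3 kb, had a fold of 5.95 and a q of 1.25e-06, against an HL fold of 3.3 with a q of 0.568. Both were present in both limbs and passed the q limit in FLs alone. Upstream of *Tbx4*, at 20.6 kb, the FL peak chr11:85689558-85689739 had a fold of 4.93 and a q of 0.000137 and overlapped no HL peak, although an HL summit lay 182 bp from it. That HL summit belonged to a peak with a fold of 2.66 and a q of 1, which overlapped a neighbouring FL peak with a fold of 2.34.

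One HL peak near *Tbx4* passed the q limit and had no FL counterpart. The peak chr11:85774649-85774906, at 64.6 kb downstream of *Tbx4*, had a fold of 4.25 and a q of 0.0209, and the nearest FL summit was 43.2 kb away. A second HL region, chr11:85775230-85775731, stood beside it with 3 summits, a fold of 3.27 and a q of 1. The HL peak chr11:85840973-85841072, 131 kb downstream of *Tbx4*, was among the tallest HL peaks of the window, with a fold of 3.85, and did not pass (q of 0.0944). Within the *Tbx4* gene there was 1 FL region, in intron 3, with a fold of 2.44 and a q of 1, and no HL region.

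*Tbx2*, the other repressor gene, had its tallest peak upstream, inside an intron of the neighbouring gene. The FL peak chr11:85613435-85613711 lay 32.5 kb upstream of the *Tbx2* start in intron 24 of *Bcas3*, with a fold of 7.3 and a q of 7.69e-10. The HL peak chr11:85613465-85613738 had a fold of 6.17 and a q of 2.78e-06, and was the tallest HL peak of the window. The summits were 15 bp apart and the log2 ratio of FL to HL fold was 0.24, the smallest among the 5 tallest FL peaks of this window. *Bcas3* held 14 FL and 10 HL regions of the window, of which 5 and 1 passed the q limit. Over the lists 17.4% of FL and 10.1% of HL regions passed, and counts this small are a description only.

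The other 4 FL peaks in *Bcas3* that passed were lower or absent in HLs. The peak chr11:85438837-85439048, at 207 kb upstream of *Tbx2*, had a fold of 5.56 and a q of 8.11e-06 in FLs, and a fold of 2.72 and a q of 1 in HLs. The peak chr11:85432454-85432716, at 214 kb, had a fold of 4.86 and a q of 0.000813 and no overlapping HL peak. At 95.2 kb the peak chr11:85550735-85551035, with 2 summits, had a fold of 3.81 (q of 0.0273) against an HL fold of 2.97 (q of 1). The peak chr11:85547945-85548168, at 98 kb, had a fold of 3.65 and a q of 0.0462, and an HL summit stood 2.75 kb from it. Intron 24 of *Bcas3* held all 5 of these FL peaks.

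At the *Tbx2* gene itself the peaks were low and partly shared. Within 10 kb of its start there were 5 FL regions, with folds of 2.39 to 3.42, and 4 HL regions, with folds of 2.19 to 2.75, and none passed. The region chr11:85651231-85651813, over exon 6 of Tbx2-201, was the tallest of them in FLs. It held 3 summits with folds of 2.1, 2.7 and 3.42 and had a q of 0.0874, and the HL peak there had a fold of 2.49. Past the end of the gene, at 16.8 kb from its start, the FL peak chr11:85662700-85662941 did pass, with a fold of 3.95 and a q of 0.000528. The HL fold there was 3.06 with a q of 1.

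The bodies of the 4 T-box genes thus carried low peaks. In FLs and HLs together 14 regions had their summit inside one of them, with folds of 2.06 to 3.42, and 0 of the 14 passed the q limit (10 FL and 4 HL regions, where 17.4% and 10.1% of the lists passed). With so few regions, this count is no result about the gene bodies. Around the starts, 100 kb to either side, the regions that passed were 1 of 18 in FLs and 1 of 12 in HLs for *Tbx3*, 1 of 8 and 0 of 5 for *Tbx5*, 7 of 17 and 1 of 18 for *Tbx2*, and 5 of 12 and 2 of 16 for *Tbx4*. Against the list shares of 17.4% for FLs and 10.1% for HLs, counts this small are a description only. The last 2 genes are so close that many of their regions are the same ones.

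Peaks found in both limbs were then compared. Of the 77 FL regions 21 overlapped an HL region (27.3%, 18.6 to 38.1%, against 22.6% of all FL regions). Of the 66 HL regions 23 overlapped an FL region (34.8%, 24.5 to 46.9%, against 29% of all HL regions). Both intervals include the background. The FL share was 11 of 51 (21.6%, 12.5 to 34.6%) around *Tbx3* and *Tbx5* and 10 of 26 (38.5%, 22.4 to 57.5%) around *Tbx2* and *Tbx4*. The HL shares were 11 of 38 (28.9%, 17 to 44.8%) and 12 of 28 (42.9%, 26.5 to 60.9%). Where peaks overlapped, their nearest summits lay a median of 45 bp apart (27 bp over all pairs), and within 100 bp in 18 of the 21 pairs (91.8% of all pairs).

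Regions that passed the q limit were shared more often, but for HLs less often than in the whole list, by counts too small for more than a description. Of the 16 FL regions 11 overlapped an HL region (68.8%, with 67% over the FL list), and of the 10 HL regions 6 overlapped an FL region (60%, with 89.3% over the HL list). Counted over all regions, 5 of 77 FL regions passed and had no HL overlap (6.49%, 2.81 to 14.3%, with 5.76% over the list). For HLs it was 4 of 66 (6.06%, 2.38 to 14.6%), where 1.09% of the list did. Of these 4 HL regions 3 lay upstream of *Tbx3* and 1 downstream of *Tbx4*.

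**Figure D4:**
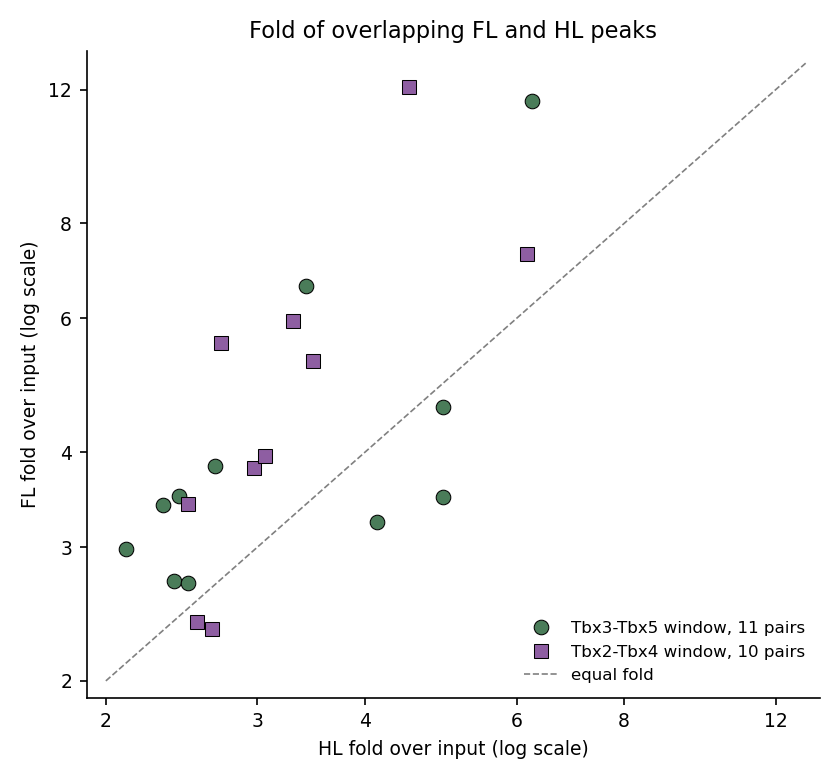
FL fold against HL fold, both over input and on log axes, for the 11 overlapping pairs of the *Tbx3*-*Tbx5* window (circles) and the 10 of the *Tbx2*-*Tbx4* window (squares). The dashed line marks equal folds, and 16 of the 21 pairs lie above it.

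Shared peaks were mostly taller in FLs, as they were over the whole lists, and 21 pairs allow a description only. The FL fold was the higher in 16 of the 21 pairs (76.2%), where it was the higher in 62.1% of the 4813 pairs over the lists. The split was 8 of 11 around *Tbx3* and *Tbx5* and 8 of 10 around *Tbx2* and *Tbx4*. The median log2 ratio of FL to HL fold was 0.46 over the 21 pairs (0.50 and 0.41 in the respective windows) and 0.17 over all pairs. Ratios ran from -0.50 to 0.95 around *Tbx3* and *Tbx5* and from -0.18 to 1.43 around *Tbx2* and *Tbx4*. The lowest ratio was that of the peak 381 kb upstream of *Tbx3*, which was taller in HLs. The folds of FLs and HLs were computed against separate inputs, and the part of the inputs in these ratios was not tested.

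Of the 21 pairs, 4 passed the q limit in both limbs, 7 in FLs alone, 2 in HLs alone and 8 in neither. Over the 4813 pairs of the lists the shares were 24.9% in both, 26.9% in FLs alone, 7.54% in HLs alone and 40.7% in neither, so that a pass in FLs alone was the more frequent of the one-limb classes there too. The 4 that passed in both were the tallest peak and the peak at 190 kb downstream of *Tbx5*, the peak in *Bcas3* upstream of *Tbx2*, and the tallest peak downstream of *Tbx4*. The 2 that passed in HLs alone both lay upstream of *Tbx3*, and 5 of the 7 that passed in FLs alone lay in the *Tbx2*-*Tbx4* window. A pass in one limb and not in the other is no evidence of a difference, which was not tested.

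Regions with several summits had shares near those of the lists. They were 6 of the 77 FL regions (7.79%, with 6.14% over the list) and 3 of the 66 HL regions (4.55%, with 4.15%). All 3 HL regions of this kind lay in the *Tbx2*-*Tbx4* window.

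The peaks were finally set against regions bound by Hoxc10, a Hox protein of the HL, that the study lists as shared with Meis in FLs or with Tbx5. Around *Tbx2* and *Tbx4*, 2 of the 26 FL regions overlapped a Meis-Hoxc10 region (7.69%, 2.14 to 24.1%, with 4.17% over the FL list), and 2 of 26 a Tbx5-Hoxc10 region (the same share, with 2.58% over the list). The first of the pair of peaks past the 3' end of *Tbx4*, at 20.5 kb, was in both kinds. The tallest peak downstream of *Tbx4*, at 120 kb, was in the Meis-Hoxc10 kind alone. The FL peak chr11:85446202-85446557, 200 kb upstream of *Tbx2* in *Bcas3*, was in the Tbx5-Hoxc10 kind alone, and had a fold of 2.68 and a q of 1. Around *Tbx3* and *Tbx5* 0 of the 51 FL regions overlapped either kind, which allows a share of up to 7% (Wilson interval). The Meis-Hoxc10 regions were chosen on FL Meis peaks of these same libraries, so their overlap with FL peaks is not independent of the peak list, and their positions are the information they add.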

How the data were processed

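Meis ChIP-seq of FL and HL buds was analysed from the peak lists, with 1 ChIP library per limb. The authors aligned to mm9 with BWA, used MarkDuplicates and a bamtools filter on the alignments, and ran MACS2 for each limb against the input of that limb, with separate summits. Cutadapt 1.3, CASAVA 1.8.2 and SAMtools are also named in the submitters' processing notes. The deposited fold is a ratio of ChIP to local input background at the summit. The −log10 p and −log10 q-values are also deposited by the authors, and no p was computed here. The deposited score follows the −log10 p and was not used. The lists carry no read totals. The study's reporting summary states the reads of each library, which were not used here.

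Summits with the same start and end were merged into 1 region, which took the best fold, p and q among them. Overlap required 1 bp, and an FL region was paired with the tallest HL region it overlapped. Distances run from the tallest summit. Gene starts in mm9 were derived from the distances in the study's list of FL peaks and genes, where all distances to a gene had to agree within 2 bp (*Tbx5* rests on 1). The annotation and promoters are of GRCm38 (GENCODE M21 and RefSeq). No coordinate was converted, and exon or intron was read by the distance from the gene's own start. Start-to-start distances were identical in both builds for *Tbx3* to *Tbx5* (163645 bp) and *Tbx2* to *Tbx4* (64214 bp). Regions per Mb take the highest peak end of each chromosome as its length (2630 Mb in all). Promoters run from 250 bp before to 50 bp after the start. Of the lists of regions bound by several factors, those held complete were used, and Meis-Tbx5 regions were not analysed here.

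Named peaks were, per window and limb, the 5 of highest fold, every peak within 10 kb of a start (low ones by count and range) and up to 5 peaks with q at most 0.05 in 1 limb and no overlap in the other. Other peaks were chosen after their values were seen. The genes, windows and lists were chosen with earlier results of these data known. On simulated data, 600 of 600 overlaps and 200 of 200 starts were recovered. Alternatives changed the cutoffs, the overlap required, the pairing and the distance limit. Versions were Python 3.11.15, matplotlib 3.10.9, scipy 1.17.1, pandas 2.3.3 and numpy 2.4.6.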

Additional observations from a re-analysis of the deposited data

How the results depend on the processing

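Counts of regions depended most on the cutoff. With a p of at most 0.0005 the FL and HL counts over both windows fell to 24 and 23, and with a fold of at least 5 to 7 and 3. Counting every summit kept them within 1.5 times. Of the regions with q at most 0.05, 7 in FLs and 3 in HLs also had a fold of at least 5, and a q of at most 0.01 left 12 and 8. The shares in common were 15.6% (FL) and 18.2% (HL) with a reciprocal overlap of 50%, and 68.8% and 60% for regions with q at most 0.05. They stayed within their intervals with summits within 100 bp and with lists of equal length. The median log2 ratio of FL to HL fold over both windows was 0.46 with the nearest summit as partner. It was 0.52 for pairs with q at most 0.05 in at least 1 limb. With each fold divided by the median fold of all shared pairs in its own limb it was 0.28. The ratio kept its sign in each window under these settings. A limit of 50 kb gave, for FLs and HLs, 10 and 6 regions near *Tbx3*, 5 and 4 near *Tbx5*, 9 and 9 near *Tbx2*, and 6 and 7 near *Tbx4*. Assigning each region to the nearest of the 4 starts gave 27 and 19, 24 and 19, 19 and 15, and 7 and 13. Of 79 alternative values, 39 moved, by more than 1.5 times for a count or out of its interval for a share. A reversal could arise only for the log2 ratios, and none of those changed sign. No paired analysis was possible because each limb has 1 ChIP library and the values come from no test between samples, and for the same reason no library could be left out. The reads of each library limit which low peaks are found, and were not used here.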
